A study of Sus scrofa with 8 samples.

Results

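The insulin-like growth factor (IGF) family was followed in cultured islets of neonatal pigs: the ligands IGF1 and IGF2, the receptors IGF1R and IGF2R, and the binding proteins IGFBP1 to IGFBP6. Of these 10 genes, 8 had at least 1 probe set that the array's annotation named by that symbol alone. All 25 such probe sets, of 23999 other than controls, were taken as members whatever their values. IGFBP3 and IGFBP4 had no probe set under their symbol and were not analysed here. A probe set is a group of short oligonucleotides that together give 1 fluorescence intensity for a transcript on an array. In the array maker's naming, the ending _a_at marks a set that matches several transcripts of a gene, and the ending _x_at marks a set that may also bind other sequences. IGF2 was read by 13 probe sets, IGF1 by 3, IGF1R, IGFBP1 and IGFBP6 by 2 each, and IGF2R, IGFBP2 and IGFBP5 by 1 each.

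IGF1 and IGF2 are secreted relatives of insulin that act through IGF1R, a receptor tyrosine kinase that signals growth and survival through the AKT and MAP kinase routes. IGF2R, which is also the cation-independent mannose 6-phosphate receptor, lacks a kinase and carries IGF2 and lysosomal enzymes to lysosomes. The binding proteins hold IGFs outside the cell, extend their life or keep them from IGF1R, and release them when proteases cut them. In fetal and neonatal pancreas IGF2 is known as an abundant growth factor, and IGF1R signalling is known to act on beta cell growth and secretion. In the RefSeq pig annotation IGF2 lies next to INS, IGFBP2 next to IGFBP5, and IGFBP1 next to IGFBP3.

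Donor pigs were 7 or 3 days old, 4 of each age, and the islet RNA of each pig was hybridised to its own Affymetrix porcine GeneChip. All donors were male Duroc/Large white crosses, with no treatment or allele that set the groups apart, and the age of the donor was the only comparison. In both groups the pancreas was cut up, digested with collagenase and cultured over 7 days in Ham's F10 containing glucose, isobutylmethylxanthine and nicotinamide before RNA was extracted. Such preparations hold endocrine cells together with duct, stromal and vascular cells, and in their bulk RNA fewer cells of a type and less RNA per cell cannot be told apart. Arrays are named here by the age and replicate number in their deposited labels, as 7-day-labelled and 3-day-labelled arrays. Each probe set for which the study lists a direction on these arrays differed between the labelled groups in the opposite direction. None of those is a member of the family as taken here. The study does list IGFBP7, a related gene with no probe set under its symbol here, as up-regulated in islets of 7-day-old pigs. The sources do not settle whether the labels or the listed directions are exchanged, so every sign below follows the labels.

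Array medians lay between 171.6 and 178.5, and the 20th percentile of each array, used here as the mark of a low value, lay between 26.4 and 31.3. Intensities were put on the log2 scale after a floor of 1, and 21574 probe sets that reached the 20th percentile in at least 1 array were compared. The test was limma's moderated test, two-sided, with Benjamini-Hochberg adjustment over all of these probe sets and a threshold of 0.05. It called 1124 probe sets higher in 7-day-labelled arrays and 1181 lower, and the median standard error of a log2 difference was 0.17. Of 15 islet endocrine markers on the array under their symbol, 14 passed this filter and were tested. The remaining marker lay below the 20th percentile in every array. The 14 tested, among them INS, GCG, SST and PPY, reached the 20th percentile in all 8 arrays.

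Within the family, IGF2R, IGFBP2, IGFBP5 and 1 of 3 IGF1 probe sets were lower in 7-day-labelled arrays, and no probe set was higher. These were 4 of the 23 member probe sets tested, where 5.47% of all probe sets were lower and 10.7% passed in either direction. The count of 0 higher by limma stands beside 5.21% for all probe sets, and at an unadjusted p under 0.05 the family had 1 higher and 6 lower. Of those 6, the IGF2 probe set Ssc.9365.5.S1_at and the IGFBP6 probe set Ssc.14062.1.S1_at reached the 20th percentile in 3-day-labelled arrays only, and so entered the test through the label under which they were higher. The same 4 probe sets were the ones whose values did not overlap between the labels, where 21.2% of all probe sets had no overlap and 10.3% had every 7-day-labelled value below every 3-day-labelled value. Probe sets of a gene share their target and are not replicates of it.

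**Figure D1:**
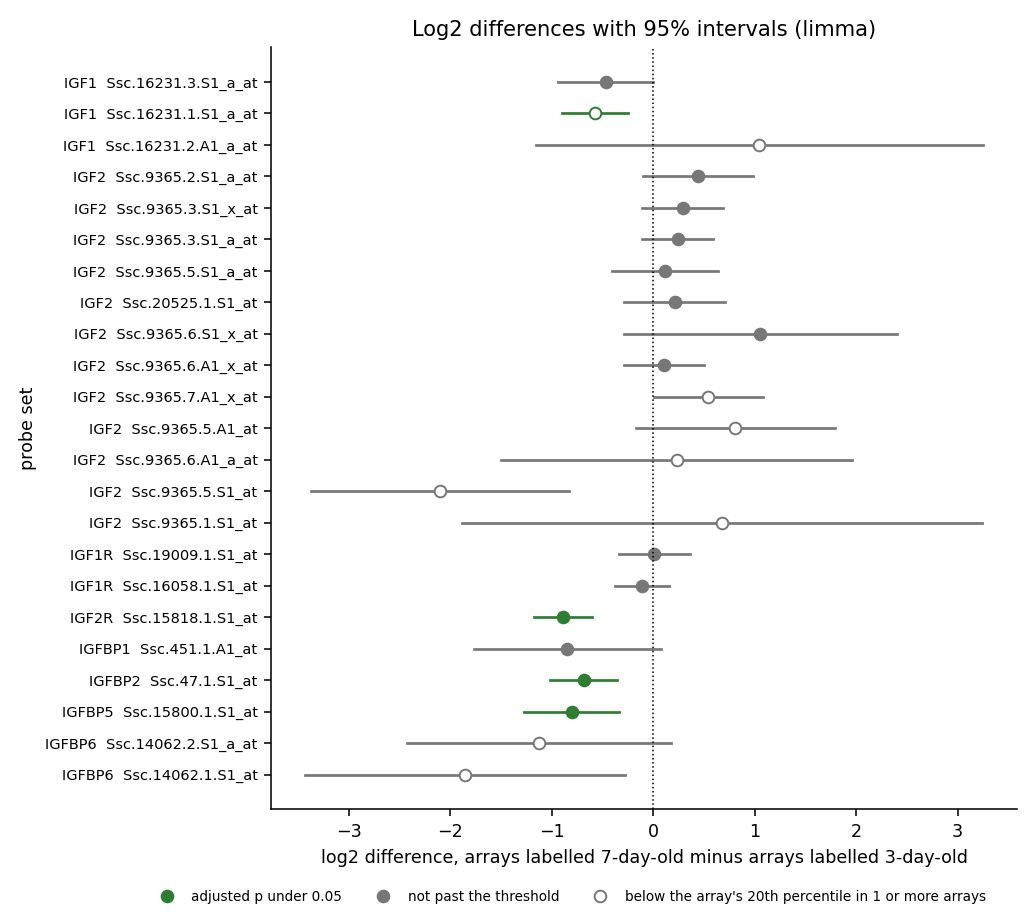
Log2 difference of the 23 tested probe sets of the family (x axis, 7-day label minus 3-day label, n = 4 arrays each; y axis, gene and probe set), with 95% confidence intervals from limma; green marks an adjusted p under 0.05 and open circles mark probe sets below the array's 20th percentile in 1 or more arrays. All 4 green points lie left of 0, and the widest intervals belong to open circles.

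IGF2, the main IGF of fetal growth, overlapped between the labels in every probe set. Ssc.9365.2.S1_a_at, which reads several of its transcripts, had intensities of 2151, 2049, 1978 and 1648 in 7-day-labelled arrays, against 885.0, 1587, 1642 and 1829 in 3-day-labelled arrays. The groups overlapped, and 3-day replicate 1 stood below the other 7 arrays. Its log2 difference was 0.44 ± 0.23 (SE), with a 95% interval of -0.10 to 0.98 and an adjusted p of 0.263 (limma), and without 3-day replicate 1 the difference was 0.21.

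The other IGF2 probe sets that reached the 20th percentile in every array overlapped likewise. Ssc.9365.3.S1_x_at had 1163, 1066, 1215 and 947.1 in 7-day-labelled arrays, against 661.8, 868.3, 1055 and 1058 in 3-day-labelled arrays. Ssc.9365.3.S1_a_at had 933.4, 958.6, 1100.3 and 815.3 in 7-day-labelled arrays, against 637.6, 779.9, 904.5 and 918.3 in 3-day-labelled arrays. In both, 3-day replicates 3 and 4 lay among the 7-day-labelled values. Ssc.20525.1.S1_at had 687.7, 523.7, 706.4 and 584.0 in 7-day-labelled arrays, against 358.7, 607.0, 549.0 and 693.3 in 3-day-labelled arrays, with overlapping ranges.

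Ssc.9365.5.S1_a_at differed in spread more than in level. It had 735.2, 694.2, 730.4 and 742.7 in 7-day-labelled arrays, against 432.7, 628.9, 794.3 and 929.4 in 3-day-labelled arrays. All 4 of the 7-day-labelled values lay inside the 3-day-labelled range. The standard deviation of its log2 values was 0.04 in 7-day-labelled arrays and 0.48 in 3-day-labelled arrays, and the difference in spread was not tested.

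The last 2 of these probe sets are ones that may bind other sequences. Ssc.9365.6.S1_x_at had 304.3, 344.7, 130.8 and 78.4 in 7-day-labelled arrays, against 44.6, 86.8, 86.4 and 173.0 in 3-day-labelled arrays, and its log2 values varied more within each label (SD 1.02 in 7-day-labelled arrays and 0.80 in 3-day-labelled arrays) than those of the other 6. Ssc.9365.6.A1_x_at had 106.2, 63.2, 68.9 and 79.8 in 7-day-labelled arrays, against 81.1, 66.9, 74.0 and 68.9 in 3-day-labelled arrays. Their log2 differences were 1.05 ± 0.58 and 0.10 ± 0.17 (SE), neither past the threshold.

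Across these 7 probe sets all differences were positive, between 0.10 and 1.05, none was past the threshold, and none had an unadjusted p under 0.05. In 6 of the 7, 3-day replicate 1 was the lowest of all 8 arrays, and among the 3-day-labelled arrays replicate 4 was the highest in 6. Averaged over the 7, the log2 level was 9.29, 9.12, 9.06 and 8.80 in 7-day-labelled arrays, against 8.22, 8.72, 8.85 and 9.08 in 3-day-labelled arrays. The mean was 9.07 ± 0.21 in 7-day-labelled arrays and 8.72 ± 0.36 in 3-day-labelled arrays (SD, n = 4 each). The difference of this average was 0.35 ± 0.20 (SE), with a 95% interval of -0.11 to 0.81 and an adjusted p of 0.296 by limma with the average entered as an added probe set. Without 3-day replicate 1 it was 0.18.

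**Figure D2:**
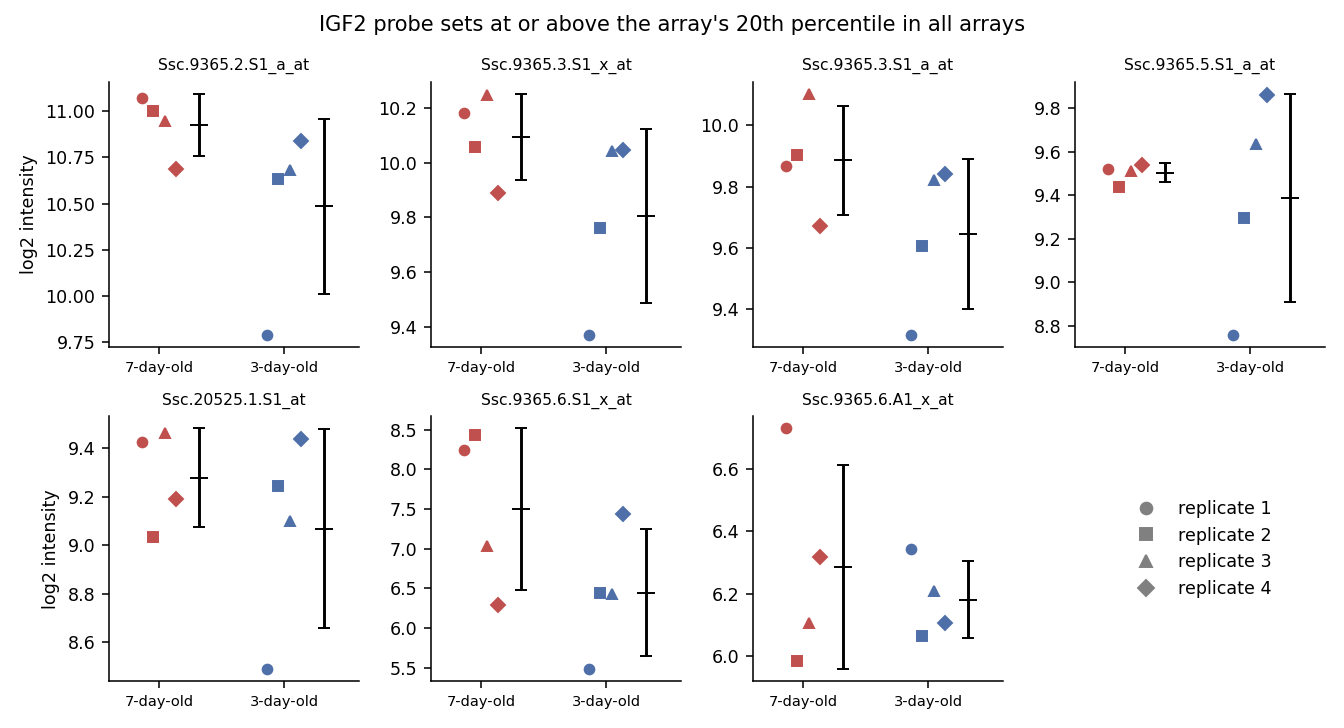
Log2 intensity (y axes, each panel on its own scale) of the 7 IGF2 probe sets that reached the 20th percentile in all arrays, by label, 7-day-old in red on the left and 3-day-old in blue on the right; symbols mark the replicate number, and black bars the mean and SD (n = 4). In 6 of the 7 panels the blue circle, 3-day replicate 1, is the lowest point.

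The remaining 6 IGF2 probe sets fell below the 20th percentile in some or all arrays. Ssc.9365.7.A1_x_at had 38.1, 63.6, 46.8 and 45.0 in 7-day-labelled arrays, against 31.2, 33.3, 23.6 and 46.0 in 3-day-labelled arrays. Its difference of 0.54 had the only unadjusted p under 0.05 among the positive ones of the family (0.049, adjusted p = 0.177 by limma). Ssc.9365.5.A1_at, Ssc.9365.6.A1_a_at and Ssc.9365.1.S1_at had differences of 0.81, 0.23 and 0.68 with adjusted p of 0.259, 0.874 and 0.739. Ssc.9365.4.S1_a_at lay between 4.01 and 9.68 in 7-day-labelled arrays and between 5.21 and 6.30 in 3-day-labelled arrays, and did not enter the test.

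Only Ssc.9365.5.S1_at ran the other way among the tested IGF2 probe sets. It had 2.93, 7.16, 7.19 and 11.8 in 7-day-labelled arrays, against 45.1, 11.6, 28.7 and 40.2 in 3-day-labelled arrays. No 7-day-labelled array and 2 of the 3-day-labelled arrays reached the 20th percentile, and 7-day replicate 4 lay just above 3-day replicate 2. It entered the test through the 3-day-labelled arrays alone, so its log2 difference of -2.10 (-0.98 with an offset of 16 added before log2) sets values near the floor against dim ones and is given as a description. Its adjusted p, 0.0501, lay near the threshold and passed it with the offset (0.0381), with array weights (0.0471) and without 3-day replicate 2 (0.0352). None of these values is support for a difference in IGF2, as the set passed the filter through the label where it was higher.

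IGF1, made in many tissues under growth hormone and locally by stromal cells, was dim on these arrays. Ssc.16231.3.S1_a_at, its only probe set at the 20th percentile in every array, had 70.1, 64.3, 93.9 and 69.3 in 7-day-labelled arrays, against 93.4, 135.6, 112.3 and 76.1 in 3-day-labelled arrays. The groups overlapped through 7-day replicate 3 and 3-day replicates 1 and 4. The difference of -0.47 ± 0.20 (SE) was not past the threshold (adjusted p = 0.180, limma).

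Ssc.16231.1.S1_a_at had 23.3, 22.5, 23.4 and 32.2 in 7-day-labelled arrays, against 34.4, 39.0, 34.5 and 41.8 in 3-day-labelled arrays. The groups did not overlap, but 7-day replicate 4 came close to the lowest 3-day-labelled array, and only 1 of the 4 7-day-labelled arrays reached the 20th percentile, against 4 of 4 with the 3-day label. The difference was -0.57 ± 0.14 (SE) with an adjusted p of 0.0428. The call was lost on leaving out any array other than 7-day replicate 4 (adjusted p 0.0686 to 0.108), without the filter on low values (0.0541), by the study's own test (0.0573), with an intensity trend and robust variances together (0.335), after quantile normalization (0.106) and with the offset (0.0563).

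The third IGF1 probe set, Ssc.16231.2.A1_a_at, had 8.29, 50.3, 90.1 and 95.5 in 7-day-labelled arrays, against 9.11, 55.7, 39.4 and 9.86 in 3-day-labelled arrays. Values close to 10 and values above 39 occurred under both labels. Its difference of 1.05 ± 0.95 (SE) had an adjusted p of 0.523, so the 3 IGF1 probe sets did not give 1 direction.

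Among the receptors, IGF2R was lower in 7-day-labelled arrays and IGF1R was not called. IGF2R (Ssc.15818.1.S1_at) had 143.4, 111.8, 135.9 and 116.8 in 7-day-labelled arrays, against 226.7, 217.5, 275.5 and 220.7 in 3-day-labelled arrays. Every 7-day-labelled value was below every 3-day-labelled value, with a wide gap between the groups and a narrow spread within them. The means were 127.0 ± 15.1 in 7-day-labelled arrays and 235.1 ± 27.2 in 3-day-labelled arrays (SD, n = 4 each), a log2 difference of -0.89 ± 0.12 (SE) with a 95% interval of -1.18 to -0.60 and an adjusted p of 0.00809 (limma). Expressed as a ratio, the 3-day-labelled level was 1.85-fold the 7-day-labelled level, with an interval of 1.52 to 2.26. The call held on leaving out each array in turn (adjusted p 0.0168 to 0.0272).

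IGF1R, the signalling receptor of both ligands, had 397.8, 345.6, 325.7 and 399.3 in 7-day-labelled arrays by Ssc.19009.1.S1_at, against 405.0, 433.3, 286.2 and 349.1 in 3-day-labelled arrays. By Ssc.16058.1.S1_at it had 331.3, 299.5, 298.7 and 290.3 in 7-day-labelled arrays, against 313.4, 382.4, 280.7 and 347.7 in 3-day-labelled arrays. In both probe sets the 7-day-labelled values lay inside the range of the 3-day-labelled values. The differences were 0.01 with a 95% interval of -0.34 to 0.36, and -0.11 with an interval of -0.38 to 0.16. Whether IGF2R and IGF1R differed in their response to age was not tested.

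Among the binding proteins, IGFBP2 and IGFBP5 were lower in 7-day-labelled arrays, and IGFBP1 and IGFBP6 did not pass the test. IGFBP2, which binds IGF2 more tightly than IGF1, had 621.2, 477.4, 410.8 and 523.4 in 7-day-labelled arrays by Ssc.47.1.S1_at, against 746.9, 825.4, 915.9 and 758.4 in 3-day-labelled arrays. The groups did not overlap, and 7-day replicate 1 came nearest to the 3-day-labelled arrays. The means were 508.2 ± 88.4 in 7-day-labelled arrays and 811.6 ± 77.6 in 3-day-labelled arrays (SD, n = 4 each), a log2 difference of -0.69 ± 0.14 (SE) with a 95% interval of -1.02 to -0.35 and an adjusted p of 0.0261 (limma). Leaving out replicate 2 or 4 of the 7-day label lost the call (adjusted p of 0.0724 and 0.0548), as did leaving out replicate 2 or 3 of the 3-day label (0.0679 and 0.0698), with differences between -0.79 and -0.59 over all 8 omissions.

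IGFBP5, a binding protein that also attaches to extracellular matrix, had 233.3, 182.3, 189.2 and 298.1 in 7-day-labelled arrays by Ssc.15800.1.S1_at, against 410.6, 347.2, 491.6 and 319.4 in 3-day-labelled arrays. The groups did not overlap, although 7-day replicate 4 lay close below 3-day replicate 4. The log2 difference was -0.81 ± 0.20 (SE), with a 95% interval of -1.27 to -0.34 and an adjusted p of 0.0447 (limma). Leaving out any array other than 7-day replicate 4 ended the call (adjusted p 0.0512 to 0.108), as did dropping the filter on low values (0.0559) and the study's own test (0.0700).

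IGFBP1, a secreted protein whose liver transcription insulin represses, had 584.9, 531.8, 863.0 and 1267 in 7-day-labelled arrays by Ssc.451.1.A1_at, against 1905, 1656, 693.7 and 1632 in 3-day-labelled arrays. The groups overlapped, as 3-day replicate 3 lay among the 7-day-labelled arrays, far from the other 3 of its label. The log2 difference was -0.85 ± 0.40 (SE), with a 95% interval of -1.77 to 0.07 and an adjusted p of 0.211, and without that array it was -1.18 with an adjusted p of 0.0804. The second probe set, Ssc.451.1.S1_at, lay between 3.43 and 24.8 in 7-day-labelled arrays and between 3.12 and 9.41 in 3-day-labelled arrays, below the 20th percentile throughout, and was not tested.

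IGFBP6, which prefers IGF2 as its ligand, was dim. Ssc.14062.2.S1_a_at had 53.0, 12.5, 13.5 and 48.0 in 7-day-labelled arrays, against 63.5, 58.9, 79.3 and 33.3 in 3-day-labelled arrays. The groups overlapped through 3-day replicate 4, and the difference of -1.13 ± 0.56 (SE) had an adjusted p of 0.236. Ssc.14062.1.S1_at had 6.44, 2.22, 3.43 and 10.9 in 7-day-labelled arrays, against 25.8, 6.20, 15.1 and 38.1 in 3-day-labelled arrays, with a difference of -1.86 and an adjusted p of 0.124. Only 1 array, with the 3-day label, reached the 20th percentile, and the probe set entered the test through it.

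Over the 5 tested binding protein probe sets, 7-day replicate 2 was the lowest of all arrays in 4 and 7-day replicate 3 in 1, while 3-day replicate 3 was the highest of all arrays in 3.

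**Figure D3:**
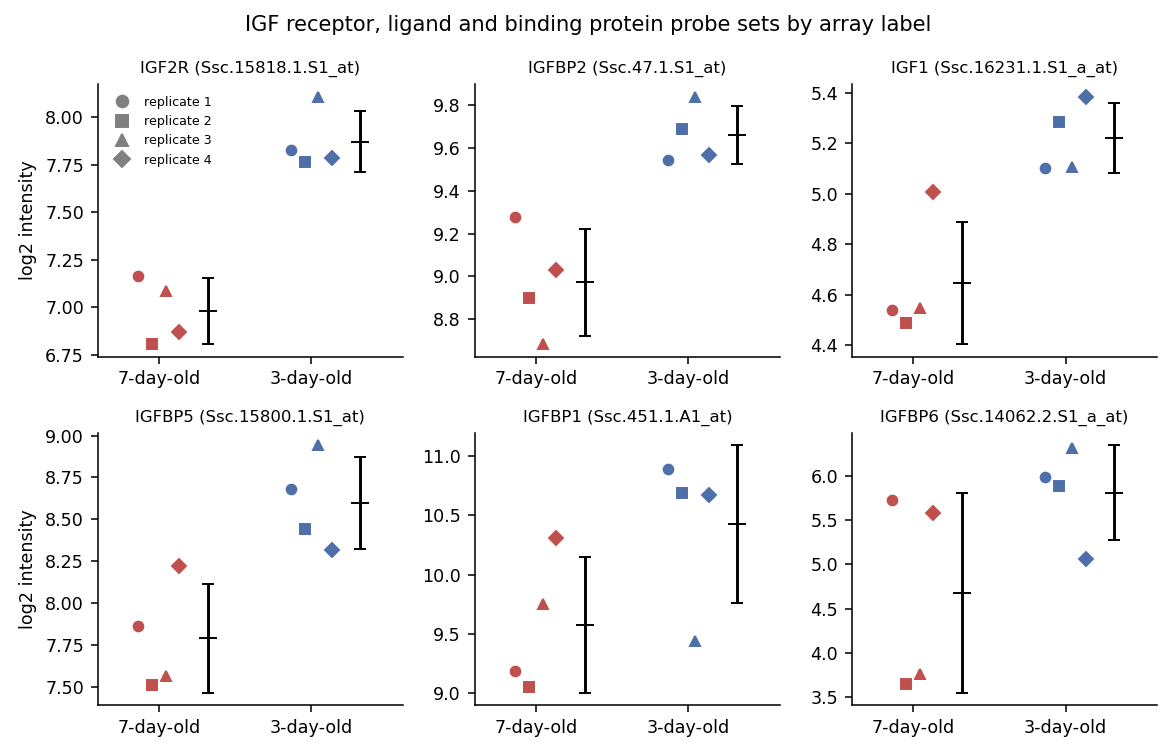
Log2 intensity (y axes, each panel on its own scale) of 6 probe sets of the family by label, 7-day-old in red on the left and 3-day-old in blue on the right; symbols mark the replicate number, and black bars the mean and SD (n = 4). The groups are apart for IGF2R, IGFBP2, IGFBP5 and IGF1 and overlap for IGFBP1 and IGFBP6, where a blue point lies among the red ones.

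Some markers of fibroblasts, endothelium, pericytes and duct were lower in 7-day-labelled arrays, and the others of these lists did not pass the test. Of the genes tested, at 1 probe set per gene, 7.15% were lower in 7-day-labelled arrays and 5.03% were higher. Among 13 fibroblast and stellate markers 6 were lower and 0 higher, with a median difference of -0.74. DCN, a matrix proteoglycan, averaged 317.2 in 7-day-labelled arrays and 1286 in 3-day-labelled arrays, a difference of -2.05 with an adjusted p of 0.0126 (limma), and PDGFRB, FBN1, THY1, COL5A1 and COL1A2 were the others. The summed intensity of the list was 44641 to 50582 in 7-day-labelled arrays and 60246 to 78860 in 3-day-labelled arrays, with no overlap. SPARC and VIM, its brightest genes, weigh most on that sum and were not called. They averaged 16700 and 15200 in 7-day-labelled arrays, against 20390 and 20520 in 3-day-labelled arrays.

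Among 10 endothelial markers 4 were lower and 0 higher (PECAM1, CDH5, TIE1 and CLDN5), with a median of -1.02 and summed intensities of 733 to 926 in 7-day-labelled arrays and 1779 to 2279 in 3-day-labelled arrays. TIE1, an endothelial receptor, lay between 2.74 and 9.67 in 7-day-labelled arrays and between 50.4 and 70.3 in 3-day-labelled arrays, and it entered the test through the 3-day label alone. Without it the median of the list was -0.91. Among 6 pericyte and smooth muscle markers 2 were lower (TAGLN and RGS5), with sums of 1775 to 2184 in 7-day-labelled arrays and 2891 to 3842 in 3-day-labelled arrays. Among 8 duct markers 2 were lower (KRT19 and MUC1), with sums of 51057 to 55218 in 7-day-labelled arrays and 56567 to 63070 in 3-day-labelled arrays. None of these 3 pairs of ranges overlapped. The duct sum leans on SPP1 and EPCAM, its brightest genes, which were not called. They averaged 21200 and 14360 in 7-day-labelled arrays, against 23560 and 14950 in 3-day-labelled arrays.

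Of the 14 endocrine markers 6 were higher (CHGB, PCSK1, PCSK2, SCG2, SCG3 and NEUROD1), 0 were lower and 8 did not pass, with a median of 0.53. Among those 8 were the hormones INS (-0.07), GCG (-0.19), SST (0.08) and PPY (0.19). The rest of the 8 were NKX6-1 (0.85), SCG5 (0.34), PDX1 (0.53) and CHGA (0.27). The list's sums of 171573 to 210728 in 7-day-labelled arrays and 147173 to 183261 in 3-day-labelled arrays overlapped. Of 6 acinar markers 1 was called lower by limma (CPB1) and 0 higher, with a median of 0.13. At an unadjusted p under 0.05 this list had 2 higher (CELA1 and AMY2) and 2 lower (CPB1 and CELA2A). CELA2A entered the test through the 3-day label alone. Of 8 leukocyte markers none was called by limma (1 lower at an unadjusted p under 0.05), with a median of -0.60. PTPRC and CD4 reached the 20th percentile in 1 array each, ITGAM in 3 and CD3E in 5. CD14 and CD8A reached it in 7 each, and AIF1 and CD163 in all 8. The sums of both lists overlapped between the labels. The filter required every tested marker to reach the 20th percentile in at least 1 array. DCN, PECAM1, CDH5, RGS5, CPB1, NEUROD1 and PCSK2 are also among the genes the study picked from these arrays, so their direction is no independent evidence. On leaving out each array in turn, 7 of the 21 marker calls (PDGFRB, COL1A2, CDH5, CLDN5, MUC1, PCSK1 and SCG2) were lost in 2 to 7 of the 8 omissions and the others in none. Second probe sets of PDGFRB, NEUROD1, THY1 and MUC1 had differences of 0.02, -0.19, -0.70 and -0.68 and were not called. COL5A1 had 5 probe sets, of which 2 were lower and the others had differences of -0.12, -0.20 and -1.26 that did not pass. A second probe set of the duct marker KRT8 was lower (-0.77, adjusted p = 0.0275), while the one used for the list was not called. The part of these cell type markers in the lower IGF2R, IGFBP2 and IGFBP5 was not tested.

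The genes whose pattern over the 8 arrays was most like that of IGF2R, IGFBP2 or IGFBP5 were found by the root mean square difference of log2 values, each centred on its own mean, among 6544 other genes. For IGF2R they were TNFRSF1B, a TNF receptor (0.06), C2H11orf24 (0.11), GNG11, a G protein subunit (0.11), WFDC1 (0.12) and COL5A2, a fibrillar collagen (0.12), against a median of 0.51 over all genes. For IGFBP2 they were EXOSC5, an RNA exosome subunit (0.06), the homeobox gene HOXD8 (0.07), the septin SEPT11 (0.09), the adhesion protein CD58 (0.10) and PLPP1, a lipid phosphatase (0.12), against a median of 0.44. For IGFBP5 they were TFPI2, a protease inhibitor (0.13), the thrombin receptor F2R (0.14), the hexokinase HK1 (0.16), SH3PXD2A (0.16) and the hypoxia-inducible factor EPAS1 (0.16), against a median of 0.53. None of these 3 was among the nearest 5 of another, with distances of 0.20 for IGF2R and IGFBP2, 0.25 for IGF2R and IGFBP5, and 0.22 for IGFBP2 and IGFBP5. By nearness to IGF2R, IGFBP2 ranked 72 and IGFBP5 210 of the 6544 genes. IGF2R ranked 100 and IGFBP5 182 for IGFBP2, and IGFBP2 ranked 47 and IGF2R 89 for IGFBP5. The 3 were taken because they were called, all of them lower, so these ranks are a description.

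A list of genes related to IGF binding proteins, processing enzymes and proteases also included genes lower in 7-day-labelled arrays. Of 17 such genes listed, 9 were on the array under their symbol and tested, and 3 were lower and 0 higher, with a median of -0.59 where the median over all genes was -0.02. STC1, a secreted inhibitor of the binding protein protease PAPPA, had 523.7, 567.0, 388.8 and 556.7 in 7-day-labelled arrays, against 1862, 1442, 1887 and 1045 in 3-day-labelled arrays. Its groups lay well apart, with a difference of -1.59 ± 0.22 (SE) and an adjusted p of 0.00809 (limma). Its second probe set was lower too (adjusted p = 0.00961). STC1 is likewise among the genes the study picked from these arrays.

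PLAT, the tissue plasminogen activator, averaged 1068 ± 137 in 7-day-labelled arrays and 1744 ± 171 in 3-day-labelled arrays (SD, n = 4 each), a difference of -0.71 with an adjusted p of 0.0161. HTRA1, a secreted serine protease known to cleave IGFBP5, averaged 4395 ± 540 in 7-day-labelled arrays and 6633 ± 1034 in 3-day-labelled arrays, a difference of -0.59 with an adjusted p of 0.0451. A second HTRA1 probe set had a difference of 0.06 (adjusted p = 0.880). The HTRA1 call was lost on leaving out any array other than 3-day replicate 1 (0.0548 to 0.107), while those of STC1 and PLAT held in all 8 omissions. PAPPA itself had a difference of -0.41 (adjusted p = 0.289), the urokinase PLAU -1.06 (0.0561), and CTSD, a lysosomal protease of the kind IGF2R carries, -0.08 (0.607).

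Downstream of the receptors no gene was called in the main test. Of 39 listed genes of IGF and insulin receptor signalling 15 were tested, with 0 higher and 0 lower by limma, 1 higher and 3 lower at an unadjusted p under 0.05, and a median of -0.17. An intensity trend and robust variances together, or array weights, gave 1 higher and 1 lower. A stricter filter (50th percentile in 4 or more arrays, 10 genes tested) gave the same counts. Without 3-day replicate 4, 1 gene was called higher and 0 lower. FOXO1, a transcription factor held out of the nucleus by insulin and IGF signals, averaged 3115 ± 156 in 7-day-labelled arrays and 2393 ± 298 in 3-day-labelled arrays (SD, n = 4 each), a difference of 0.39 with an adjusted p of 0.0583. GRB10, an adaptor that restrains both receptors, averaged 458.8 ± 79.9 in 7-day-labelled arrays and 647.0 ± 37.0 in 3-day-labelled arrays, a difference of -0.51 with an adjusted p of 0.0623. The insulin receptor INSR had -0.53 (adjusted p = 0.162) and the kinases AKT1 and AKT2 -0.21 (0.205) and -0.05 (0.836).

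The growth hormone axis, which drives IGF1 in liver, likewise had 0 of 10 tested genes called in either direction, with 1 lower at an unadjusted p under 0.05 and a median of -0.20. Without 3-day replicate 4, 1 gene of this axis was called lower. The growth hormone receptor GHR had a difference of 0.04 (adjusted p = 0.900), the kinase JAK2 one of -0.41 (0.144), and growth hormone itself, GH1, one of -0.66 (0.311). GH1 was dim and reached the 20th percentile in 7 arrays. In the insulin family, INS averaged 23690 ± 4216 in 7-day-labelled arrays and 24650 ± 2214 in 3-day-labelled arrays (SD, n = 4 each), a difference of -0.07 with an adjusted p of 0.795. RLN2, which reached the 20th percentile in 5 arrays, and INSL3 had differences of -0.32 and -0.33. Of INS, RLN2 and INSL3, 0 were called or had an unadjusted p under 0.05.

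Among imprinted genes, of which IGF2 is 1 in many mammals, PEG3 was higher in 7-day-labelled arrays. It averaged 599.8 ± 123.4 in 7-day-labelled arrays and 338.0 ± 63.6 in 3-day-labelled arrays (SD, n = 4 each), a difference of 0.83 with an adjusted p of 0.0361, and the call was lost on leaving out any array other than 3-day replicate 4 (0.0576 to 0.0792). A second PEG3 probe set had a difference of 0.79 and an adjusted p of 0.0475. PEG10 had a difference of 0.88 (adjusted p = 0.0503) by its brightest probe set, while of its other 2 one was higher (1.08, adjusted p = 0.037) and one was not called (-1.74, adjusted p = 0.387). The other genes had differences that did not pass, NNAT 0.30 (0.146), GNAS 0.11 (0.814), MEG3 -0.11 (0.827) and PLAGL1 0.02 (0.925). Read by the brightest probe set of each gene, the list had 1 of 6 tested genes higher and 0 lower, with a median of 0.20.

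Cell cycle genes, a class that IGF signals are known to drive, had 4 of 12 tested genes higher and 0 lower, with a median of 0.32. TOP2A, a topoisomerase of dividing cells, averaged 1768 ± 142 in 7-day-labelled arrays and 1022 ± 114 in 3-day-labelled arrays (SD, n = 4 each), a difference of 0.80 with an adjusted p of 0.00877. The mitotic genes CCNB2 (0.67, adjusted p = 0.0216), CCNB1 (0.53, 0.0328) and CDC20 (0.60, 0.0356) were the others. TOP2A was called in all 8 omissions of an array, CCNB2 without replicate 3 or 4 of the 7-day label or replicate 4 of the 3-day label, CCNB1 without 7-day replicate 3 or 3-day replicate 4, and CDC20 without replicate 3 of either label. With the remaining arrays left out, the adjusted p of these 3 lay between 0.0514 and 0.0878. CCND2, a D-type cyclin, had a difference of -0.65 (adjusted p = 0.0525).

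**Figure D4:**
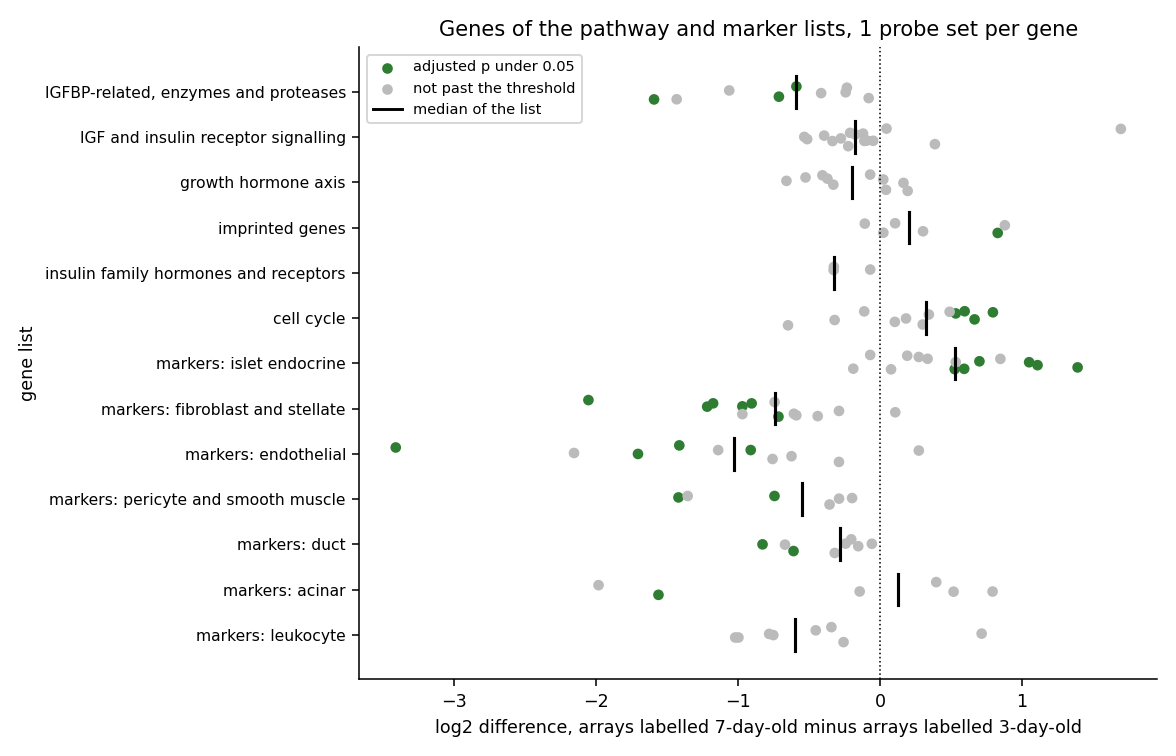
Log2 difference (x axis, 7-day label minus 3-day label, n = 4 arrays each) of the genes tested in 6 pathway lists and 7 marker lists (y axis), 1 point per gene; green marks an adjusted p under 0.05 (limma) and black bars the median of the list. Green points lie left of 0 in the list of binding-protein-related genes, enzymes and proteases and those of fibroblast, endothelial, pericyte, duct and acinar markers. They lie right of 0 in the imprinted, cell cycle and endocrine lists.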

How the data were processed

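Islet RNA of 8 pigs, 4 per age, was measured on 1 array each. The deposited table holds intensities on a linear scale, and the authors had scaled the arrays: leaving out the top and bottom 2%, the values average 500.1 in all 8 arrays. The sources used here do not name the software that made the values, and division of every probe set by its own median, part of the authors' analysis, had not been applied to the deposited intensities. An extra round of linear amplification was used where cRNA was low, without naming the samples.

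Ages and replicate numbers came from the sample labels, and gene symbols from the platform annotation (10069 probe sets with 1 symbol, 198 with several, 13732 with none). The 124 control probe sets were left out, 1528 intensities under 1 were set to 1, and log2 values were computed from the deposited intensities. 7-day-labelled arrays were compared with 3-day-labelled arrays by limma 3.58.1 (lmFit, eBayes) in R 4.3.3, and tables and plots were made in Python 3.11.15. Differences are of mean log2 values. A gene of a list was read by its tested probe set with the highest mean. Every member was named, with up to 4 called genes of each list, or the 2 of smallest p where none was called, and every called marker. PAPPA, CTSD, INSR, GHR and the other list genes were named after their values had been seen. The members, lists and tests were chosen with earlier results of these data known, and no set test was run. The fit was tested on simulated data. The number of pigs limits precision. Alternatives were no filter or a stricter filter (50th percentile, 4 or more arrays), an unpaired t-test, an intensity trend together with robust variances, and array weights. Others were centring, quantile normalization, an offset of 16, a block by replicate number, each array left out, and, for lists, the mean of a gene's probe sets. The t-test is of the kind the study used, but it was run on the log2 values and filter used here and does not repeat the study's analysis. The average of 7 IGF2 probe sets was added after seeing the data.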

Additional observations from a re-analysis of the deposited data

Results flagged for a closer look

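A sample stood far from the other 3 of its label in 2 of 50 groups of 4 values examined (25 probe sets under 2 labels), by a gap on the log2 scale above Dixon's 95% critical share of the group's range. Chance gives about 1 such group in 20. IGF1 (Ssc.16231.1.S1_a_at) was 32.2 in 7-day replicate 4, against 22.5 to 23.4 in the other 7-day-labelled arrays, a gap of 0.888 of the range on the log2 scale and 0.905 on the linear scale. IGFBP1 (Ssc.451.1.A1_at) was 693.7 in 3-day replicate 3, against 1632 to 1905 in the other 3-day-labelled arrays, a gap of 0.847 of the range on the log2 scale and 0.775, below the critical share, on the linear scale.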

How the results depend on the processing

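Of 380 alternative values for the tested member probe sets and the IGF2 average, 341 kept their direction and side of the threshold. In the others, 29 lost the call, 3 gained it and 7 turned sign. Only the 4 called probe sets could lose a call. Over the 8 omissions of an array, the called IGF1 probe set lost it in 7, IGFBP5 in 7, IGFBP2 in 4 and IGF2R in 0. No member was called higher under any alternative. The 4 lower members became 2 without the filter and by the unpaired t-test, and 1 to 3 on leaving out each array. Of all 21574 probe sets tested, the 1124 higher became 1785 with an intensity trend and robust variances together and 415 to 936 on leaving out each array. The stricter filter called 1705 higher among the fewer probe sets it tested, 12213. The 1181 lower became 547 to 918 on leaving out each array. Pathway genes called lower, 3 of 55, became 6 with trend and robust variances together and with array weights, and 5 with the offset. With the stricter filter they were 6 of only 30 tested. Those called higher, 5 of 55, became 1 to 6 on leaving out each array, and those called lower 2 to 4. With trend and robust variances together the 6 higher markers became 10 and the 15 lower became 24. The cause was not tested. Signs turned only in differences that were not called. Ssc.9365.5.S1_a_at of IGF2 ranged from -0.094 to 0.27 over the omissions (-0.094 without 3-day replicate 1), Ssc.9365.6.A1_x_at from -0.044 to 0.20 (-0.044 without 7-day replicate 1) and Ssc.9365.6.A1_a_at from -0.49 to 0.63 (-0.49 without 3-day replicate 1). For IGF1R, Ssc.19009.1.S1_at ranged from -0.11 to 0.091 and was -0.11 without 3-day replicate 3, -0.013 without 3-day replicate 4, -0.0335 without 7-day replicate 1 and -0.035 without 7-day replicate 4.

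Equal replicate numbers gave no sign of pairing, with residual correlations of -0.0135 to 0.00487. With the replicate number as a block, limma called 0 of all probe sets in either direction (5264 at an unadjusted p under 0.05), hence 0 members (6 lower at an unadjusted p under 0.05), 0 pathway genes and 0 markers, and IGF2R had an adjusted p of 0.0576. Dim probe sets, below the array's 20th percentile in some arrays, limit what is known of IGF1, IGFBP6 and 6 IGF2 sets.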
